A study of Mus musculus with 9 samples.

Results

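Contractile and actin-binding genes were followed in mouse cells sorted from embryoid bodies (EBs) with or without NRF1 overexpression (OE). The group held 10 of the 56691 genes counted. These were Acta2, Tagln, Cnn1, Cnn2, Myl9, Tpm1, Tpm2, Actn1, Cald1 and Flna, taken by gene symbol from each of the 9 count tables. All 10 passed the filter on low counts, as did 16903 genes in all.

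The libraries came from BVSC pluripotent stem cells (PSCs), a mouse line that carries a Blimp1-mVenus (BV) and a Stella-CFP reporter, after differentiation as EBs. BV+ cells, which the study sorted as primordial germ cell-like cells (PGCLCs), gave 2 libraries under NRF1 OE and 2 libraries carrying an empty vector as the control (Ctrl). BV- cells, called somatic in the study, gave 3 libraries under NRF1 OE and 2 Ctrl libraries. Nrf1 cDNA or the empty vector was carried by a doxycycline (DOX)-inducible lentiviral vector, and the EBs of all 4 groups received DOX at 1.5 μg/mL from day 2 to day 5 of differentiation. The study's methods give day 5 as the day on which BV+ cells were sorted, and describe the libraries as biological duplicates or replicates. Nothing in the labels ties a library to a separate culture, so the p-values below measure the spread between these libraries. A sorted population is a mixture, in which fewer cells of a type and less RNA per cell cannot be told apart.

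Smooth muscle α-actin and its partners form thin filaments that slide along myosin II, whose regulatory light chain sets the activity of the motor. Calponins, transgelin, caldesmon and tropomyosins lie along actin filaments and control their access to myosin or their stability, while α-actinin and filamin cross-link filaments. Many of these genes carry CArG boxes, the binding site of serum response factor (SRF), whose cofactors of the myocardin family (MRTFs) enter the nucleus when the pool of free actin falls. In the early embryo these genes mark mesoderm derivatives and cells that spread and contract, and they are also expressed at lower levels in many other cells.

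RefSeq promoter windows, which run from 250 bases before to 50 bases after an annotated start, were found for 9 of the 10 genes, in 10 windows (Cald1 had 2), with coordinates on GRCm38.p6. The CArG box was searched on both strands as CC, 6 bases of A or T, and GG. Only exact matches inside the windows were searched, and Tagln had no window, so boxes that vary or lie elsewhere were missed. The exact box was present in the windows of Myl9 and Cnn2 and in 1.63% of all 32851 mouse windows. The stretches before the first annotated exon of these 2 genes are shown because they hold the SRF motif, which is in capitals. Both are on the plus strand and read 5′ to 3′, Myl9 at chr2:156775214-156775419 and Cnn2 at chr10:79988350-79988583.

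Myl9: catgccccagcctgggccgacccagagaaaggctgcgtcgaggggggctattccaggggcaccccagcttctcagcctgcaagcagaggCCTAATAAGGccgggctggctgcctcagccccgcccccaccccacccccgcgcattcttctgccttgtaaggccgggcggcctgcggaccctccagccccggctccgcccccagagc
Cnn2: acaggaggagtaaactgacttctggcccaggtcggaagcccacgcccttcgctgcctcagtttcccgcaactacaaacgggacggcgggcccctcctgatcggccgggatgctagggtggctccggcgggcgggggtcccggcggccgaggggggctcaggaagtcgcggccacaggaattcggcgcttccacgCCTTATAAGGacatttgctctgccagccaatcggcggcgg

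The motif lay 161 to 152 bases before the annotated start in Myl9 and 56 to 47 bases before it in Cnn2. The NRF1 half-site TGCGCA, part of the palindrome that NRF1 binds, was in none of the 10 windows and in 7.76% of all windows. Only this spelling of the half-site was searched. At that share few or none of 10 windows would hold it, so its absence says little about these genes. The MCAT motif CATTCC, bound by TEAD factors, was in 14.7% of all windows. It was found outside annotated exons in the windows of Cald1 (plus strand, chr6:34598341-34598366) and Flna (minus strand, chrX:74246665-74246690). Each is shown with 10 bases on either side and the motif, or its reverse complement, in capitals.

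Cald1: gcatgcctagGGAATGacaggcatct
Flna: cgttgtggggCATTCCaacgggaggg

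The windows of Tpm1 and Acta2 also held this motif, within annotated exons. No window of the 10 genes held more than 1 of the 3 motifs. These matches are letters in a window and were not measured as binding sites.

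Sequencing depth was 13702162 to 19625460 counts per library, and the lowest count of any of the 10 genes in any library was 78, for Tagln in BV- Ctrl library 1. Nrf1 itself, the gene that was overexpressed, was at 95.7 and 99.4 CPM (counts scaled to library size) in BV+ cells with NRF1 OE and at 91.1 and 90.4 CPM with Ctrl. In BV- cells it was at 119, 122 and 126 CPM with NRF1 OE and at 99.1 and 105 CPM with Ctrl. Every NRF1 OE library was above the Ctrl libraries of its population, but the log2 differences of 0.10 and 0.26 did not pass the test. In these 9 libraries the markers did not bear out the label PGCLC at the RNA level. The study also measured germ cell marker genes in BV+ against BV- cells by real-time RT-PCR, and those values were not used here. Of 7 germ cell markers, 0 were higher in BV+ than in BV- cells under either vector, by edgeR, by DESeq2 or at an unadjusted p under 0.05. Over all genes, edgeR called 1.1% higher with Ctrl and 9.9% with NRF1 OE, so 0 of 7 says little by itself. The median log2 fold change of the 7 was -0.18 with Ctrl and -0.43 with NRF1 OE. With NRF1 OE Nanos3, Dppa3 and Tfap2c were lower (log2 fold changes of -1.04, -0.65 and -0.43), where 3.85% of all genes were. Prdm1, which encodes BLIMP1, the source of the BV reporter, was between 42.4 and 62.8 CPM in all 9 libraries. The populations are therefore called BV+ and BV- below.

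Libraries also differed in how their counts ran with the GC content of transcripts. Over 16662 genes, the rank correlation of a gene's deviation from its mean with its GC content was -0.516 to -0.415 in the 4 Ctrl libraries, 0.0242 and 0.296 in the BV+ NRF1 OE libraries and 0.0289 to 0.635 in the BV- NRF1 OE libraries. Genes of 1 library share its depth and base composition, so these values are descriptions. The transcripts of the 10 genes had a GC content between 45.6% (Cald1, percentile 24.9 among tested genes) and 56.8% (Myl9, percentile 85.4). The fits were therefore repeated with offsets that remove the trend of a library with transcript GC and length, and the plots of log2 fold changes show both values of each gene in the 4 comparisons of groups. For the 10 genes, the value with offsets is printed where a call or a sign changed or where it differed by more than 0.15 on the log2 scale. Values of all other genes named in this report are without the offsets.

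On the scale of FPKM, which is per length and allows genes to be compared, Flna had the highest group mean of the 10 genes in every group. Its group means were 142 to 192 FPKM. Cnn2 followed in the Ctrl groups, at 68.2 ± 3.90 FPKM (SD, n = 2) in BV+ and 75.8 ± 1.46 FPKM (SD, n = 2) in BV- cells. Acta2 had the second highest group mean in BV+ cells with NRF1 OE, at 176 ± 73.9 FPKM (SD, n = 2). In NRF1 OE library 1 of these cells Acta2 was above Flna, at 228 against 205 FPKM. Acta2 was at 36.4 ± 3.37 FPKM (SD, n = 2) in BV+ Ctrl cells and 17.5 ± 2.14 FPKM (SD, n = 2) in BV- Ctrl cells. Cnn1, the calponin of differentiated smooth muscle, had a group mean of 2.73 to 5.71 FPKM. The contractile isoforms Acta2 and Tagln varied most between groups, with 10.1 and 10.9 times between the lowest and the highest group mean of CPM, and Flna varied least, with 1.39 times.

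**Figure D1:**
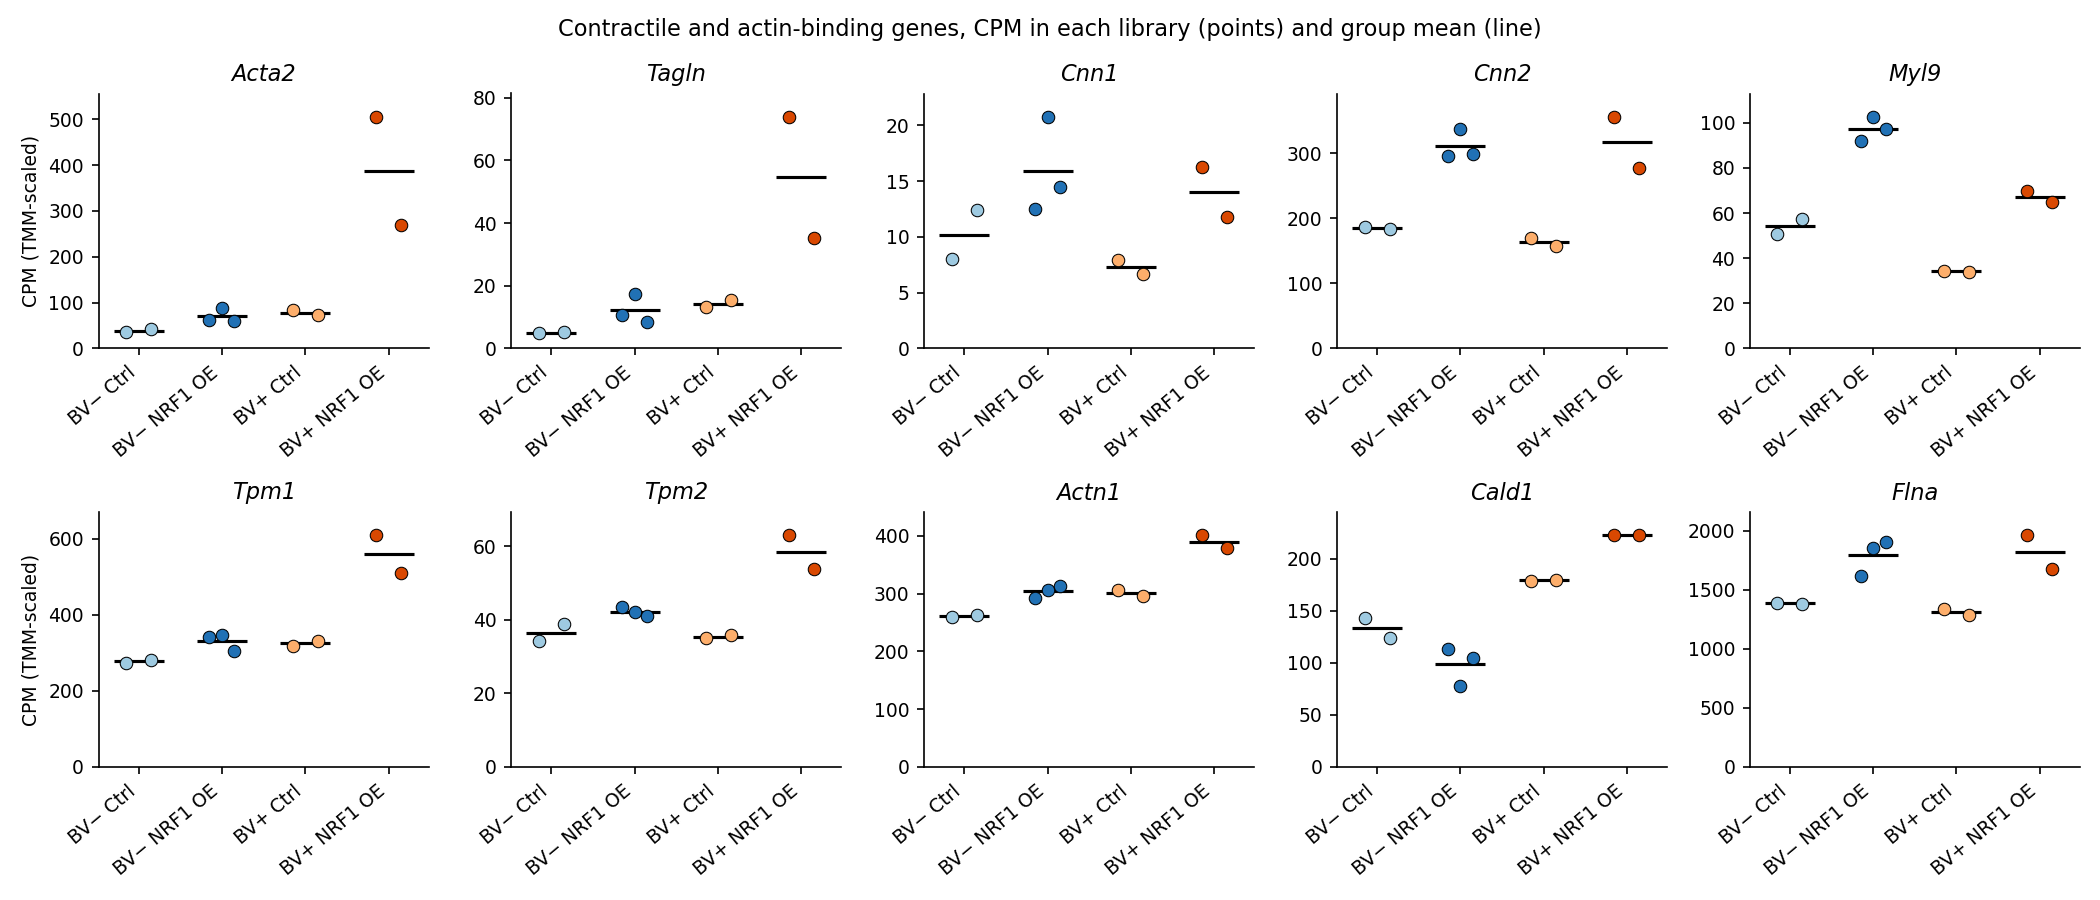
CPM (TMM-scaled, linear axes from 0) of the 10 contractile and actin-binding genes in each of the 9 libraries. Points are libraries and lines are group means. The BV+ libraries with NRF1 OE are above the BV+ Ctrl libraries for all 10 genes, and the BV- libraries with NRF1 OE are above the BV- Ctrl libraries for 9 genes and below them for Cald1.

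The first question was whether these genes differed between the NRF1 OE and Ctrl libraries of BV+ cells. Of the 10 genes, 8 were called, all higher with NRF1 OE, at an adjusted p under 0.05 (edgeR, 2-sided). Over all genes tested, 8.02% were called in this comparison, 6.24% higher and 1.78% lower. The median log2 fold change was 0.86 over the 10 genes and 0.04 over all genes tested. All 10 genes had both NRF1 OE libraries above both Ctrl libraries, as did 38.1% of all genes, while 32% had both below. By the study's threshold (unadjusted p under 0.05 and an absolute log2 fold change above 0.58), 7 of the 10 were called, against 17% of all genes.

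Acta2, smooth muscle α-actin, changed most. It was at 506 and 270 CPM in BV+ NRF1 OE libraries 1 and 2, and at 83.2 and 72.9 CPM in BV+ Ctrl libraries 1 and 2. The NRF1 OE libraries stood well above the Ctrl libraries and also apart from each other. The log2 fold change was 2.31 ± 0.27 (SE), or 4.97 times (adjusted p = 0.00966). Tagln, which encodes the actin-bundling protein transgelin (SM22α), was at 73.9 and 35.3 CPM with NRF1 OE and at 13.2 and 15.4 CPM with Ctrl. Here too NRF1 OE library 1 was the higher one, and the log2 fold change was 1.93 ± 0.35 (SE, adjusted p = 0.0158). Without NRF1 OE library 1 the log2 fold changes were 1.79 for Acta2 and 1.30 for Tagln, and without library 2 they were 2.70 and 2.37. The exons of Tagln overlap Pcsk7 on the opposite strand, and the use of strand in counting is not given in the sources used here. Pcsk7 itself was between 9.33 and 14.7 CPM in all libraries and was not called (log2 fold change 0.18 in BV+ cells).

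The calponins, which bind actin and restrain myosin, were also higher. Cnn1 was at 16.2 and 11.8 CPM with NRF1 OE and at 7.93 and 6.71 CPM with Ctrl, a log2 difference of 0.94 that missed the threshold (adjusted p = 0.0591) and passed it with the GC offsets (0.72, adjusted p = 0.0421). Cnn2, the calponin of non-muscle cells, was at 357 and 278 CPM with NRF1 OE and at 171 and 157 CPM with Ctrl. It rose by 0.95 ± 0.13 on the log2 scale (SE, adjusted p = 0.0115). Myl9, the regulatory light chain of smooth muscle and non-muscle myosin II, was at 69.6 and 64.9 CPM with NRF1 OE and at 34.5 and 33.8 CPM with Ctrl. The replicates of Myl9 lay close together in both groups, and its log2 fold change was 0.98 ± 0.12 (SE, adjusted p = 0.00966). With the GC offsets the changes of Cnn2 and Myl9, both with GC-rich transcripts, were 0.68 and 0.64 and remained past the threshold.

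Among the tropomyosins, Tpm1 was at 610 and 511 CPM with NRF1 OE and at 318 and 332 CPM with Ctrl (log2 fold change 0.79 ± 0.12, SE, adjusted p = 0.0125). Tpm2 was at 63.1 and 53.9 CPM with NRF1 OE and at 35.2 and 35.8 CPM with Ctrl (0.72 ± 0.13, SE, adjusted p = 0.0155). Both rose without overlap, and with the offsets Tpm2 was called at 0.40. Caldesmon, encoded by Cald1, blocks myosin from the thin filament. Its gene was at 223 CPM in both NRF1 OE libraries and at 179 CPM in both Ctrl libraries. The difference of 0.31 ± 0.16 (SE) did not pass the test (adjusted p = 0.188), but did with the offsets, at 0.51 (adjusted p = 0.00401).

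The cross-linkers had smaller changes than the other genes called. Actn1, non-muscle α-actinin, was at 401 and 379 CPM with NRF1 OE and at 307 and 296 CPM with Ctrl. Its log2 fold change of 0.37 ± 0.10 (SE) had an adjusted p of 0.0415 and fell to 0.21 with the offsets, where the call was lost (adjusted p = 0.0700). Actn1 exons also overlap 2 antisense genes, Gm47766 and Gm47767, which held 99 and 19 counts over all libraries. Flna, filamin A, was at 1965 and 1679 CPM with NRF1 OE and at 1342 and 1287 CPM with Ctrl. The log2 fold change of Flna was 0.47 ± 0.11 (SE, adjusted p = 0.0343), or 1.39 times, and 0.32 with the offsets, still past the threshold.

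The calls in BV+ cells rested on few libraries. Without BV+ NRF1 OE library 1, or without either BV+ Ctrl library, 0 of the 10 genes were called, and so were 0 genes of the whole table. The fits without 1 of the other 6 libraries called 534 to 4957 genes of the whole table. Without either BV- Ctrl library or BV- NRF1 OE library 3 the call of Actn1 was lost, as it was without a filter, with upper-quartile factors and with library size alone, and that of Flna was lost without BV- Ctrl library 1 or BV- NRF1 OE library 3. In the 3 fits with 0 calls all 10 differences were still positive, which follows from the lack of overlap between the groups. The median log2 fold change of the 10 genes was 0.67 without NRF1 OE library 1. It was 0.88 without Ctrl library 1 and 0.82 without Ctrl library 2. Over all genes the median was 0.03, 0.05 and 0.04 in these fits.

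**Figure D2:**
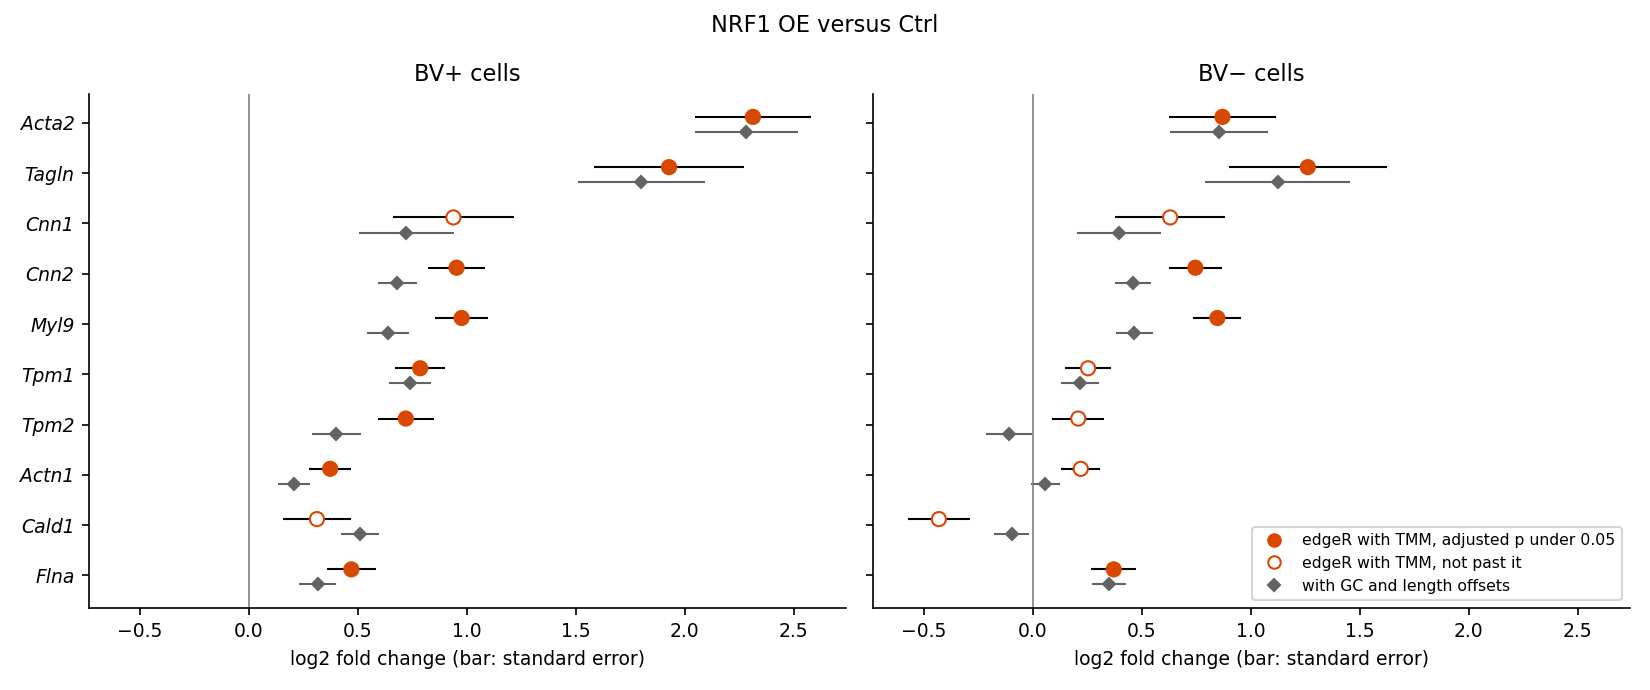
Log2 fold change (NRF1 OE versus Ctrl) of the 10 genes in BV+ cells (left) and BV- cells (right), with standard errors. Filled circles passed an adjusted p under 0.05 in edgeR, open circles did not, and grey diamonds are the values with GC and length offsets. In BV+ cells all 10 values are above 0 and 8 are filled, and in BV- cells 5 are filled and Cald1 lies at -0.43.

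In BV- cells NRF1 OE was compared with Ctrl in the same way, and 5 of the 10 genes were called, all higher. In this comparison 17.2% of all genes tested were called, 10.2% higher and 6.98% lower. The median log2 fold change was 0.50 over the 10 genes and 0.01 over all genes. All 3 NRF1 OE libraries were above both Ctrl libraries for 9 genes, against 29.4% of all genes, and below them for Cald1, against 27.6% of all genes. The study's threshold called 5 of the 10, against 16% of all genes.

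Tagln had the largest difference, with 10.7, 17.4 and 8.35 CPM in NRF1 OE libraries 1 to 3 and 4.92 and 5.13 CPM in Ctrl libraries 1 and 2 (log2 fold change 1.26 ± 0.36, SE, adjusted p = 0.0411). With the offsets its value was 1.12 and the call was lost (adjusted p = 0.0528). Acta2 was at 62.9, 87.4 and 59.9 CPM with NRF1 OE and at 34.9 and 41.7 CPM with Ctrl. The groups did not overlap, and the log2 fold change was 0.87 ± 0.25 (SE, adjusted p = 0.0403). Myl9 was at 91.9, 103 and 97.1 CPM with NRF1 OE and at 50.7 and 57.4 CPM with Ctrl. Its log2 fold change of 0.85 ± 0.11 (SE, adjusted p = 0.0317) was 0.47 with the offsets, past the threshold.

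Cnn2 was at 296, 337 and 299 CPM with NRF1 OE and at 187 and 183 CPM with Ctrl (log2 fold change 0.75 ± 0.12, SE, adjusted p = 0.0317), and its value with the offsets was 0.46. Flna was at 1619, 1854 and 1908 CPM with NRF1 OE and at 1394 and 1380 CPM with Ctrl (0.37 ± 0.10, SE, adjusted p = 0.0386). Both were clearly apart between the groups. For Cnn1, with 12.5, 20.8 and 14.5 CPM against 8.0 and 12.4 CPM, the groups nearly met, and the log2 difference of 0.63 did not pass (adjusted p = 0.0905). It was 0.39 with the offsets. Tpm1, Tpm2 and Actn1 differed by 0.25, 0.21 and 0.22 on the log2 scale, with adjusted p between 0.0941 and 0.210. With the offsets Actn1 was at 0.0572 (adjusted p = 0.627), Tpm2 turned to -0.11 and Tpm1 was at 0.22.

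Cald1 went the other way in BV- cells. It was at 114, 77.7 and 105 CPM with NRF1 OE and at 143 and 124 CPM with Ctrl, so that every NRF1 OE library was below every Ctrl library. The log2 fold change of -0.43 ± 0.14 (SE) missed the threshold (adjusted p = 0.0560), passed it in DESeq2, with 3 other scalings, without a filter and without BV- NRF1 OE library 1, and was -0.10 with the offsets.

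The calls in BV- cells were lost for all 5 genes when either BV+ Ctrl library or either BV- Ctrl library was left out, and when only the BV- libraries were fitted. Over the whole table the 4 fits without a Ctrl library called at most 1 gene, and the fit of the BV- libraries alone called 0 of 15840 genes. Without BV- NRF1 OE library 3, 1 of the 10 (Myl9) was called, where 35 of 16877 genes were. Without library 2 Flna lost its call, where 2460 of 16885 genes were called. Without library 1, 8 of the 10 were called, where 5847 of 16902 genes were. In each of the fits that left out a library, 9 of the 10 differences were positive. This follows from the lack of overlap between the groups and is no sign of stability.

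The difference between the NRF1 OE effects in BV+ and BV- cells was tested directly. It was positive for all 10 genes, with a median of 0.41 over the 10 genes and 0.02 over all genes, but 0 of the 10, and 0 (0%) of the 16903 genes, passed in edgeR. At an unadjusted p under 0.05, 4 of the 10 and 932 of all genes were found. DESeq2 called 23 genes, of which Acta2 was the only one of the 10. The difference was 1.44 ± 0.35 (SE, log2) for Acta2, at an unadjusted p of 0.00158 and an adjusted p of 0.514. It was 0.74 for Cald1, 0.53 for Tpm1 and 0.51 for Tpm2. The smallest differences, 0.10 for Flna, 0.13 for Myl9 and 0.15 for Actn1, had unadjusted p of 0.264 to 0.521. Both effects are therefore given side by side, and a larger effect in BV+ cells was not shown for any of the 10 genes by the main test. The study's threshold, which takes the unadjusted p, called Acta2 and Cald1, against 4.48% of all genes.

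BV+ cells were then compared with BV- cells under the same vector. With Ctrl, 1 of the 10 genes was called, against 1.12% of all genes, and it was lower in BV+ cells, where 1.1% of all genes were called higher and 0.0237% lower. This was Myl9, with 34.5 and 33.8 CPM in BV+ and 50.7 and 57.4 CPM in BV- cells (log2 fold change -0.66 ± 0.12, SE, adjusted p = 0.0232). Acta2 and Tagln leaned the other way. Acta2 was at 83.2 and 72.9 CPM in BV+ and at 34.9 and 41.7 CPM in BV- cells (1.03 ± 0.26, SE, adjusted p = 0.119). Tagln was at 13.2 and 15.4 CPM in BV+ and at 4.92 and 5.13 CPM in BV- cells (1.51 ± 0.38, SE, adjusted p = 0.112). Both groups were apart for these genes, and with the GC offsets both were called, at 1.02 and 1.54 (adjusted p = 0.0468 and 0.0378). In all, 5 genes were higher without overlap (22.6% of all genes were), 4 were lower (25.4% of all genes) and Tpm2 overlapped. Flna, at -0.08, was at -0.25 with the offsets, and was called in neither fit. The call of Myl9 was lost without either BV+ Ctrl library, either BV- Ctrl library or BV- NRF1 OE library 3, with log2 fold changes of -0.75 to -0.60 over all fits that left out a library. Those 5 fits called 31 to 209 genes of the whole table, against 190 with all libraries. The study's threshold called Acta2, Tagln and Myl9, against 5.74% of all genes.

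With NRF1 OE, 7 of the 10 genes were called, against 13.8% of all genes. Of these, 6 were higher in BV+ than in BV- cells and 1 was lower, against 9.9% and 3.85% of all genes. Acta2 was at 506 and 270 CPM in BV+ and between 59.9 and 87.4 CPM in BV- cells, a log2 fold change of 2.47 ± 0.23 (SE, adjusted p = 3.84e-05). Tagln was at 73.9 and 35.3 CPM against 8.35 to 17.4 CPM (2.18 ± 0.31, SE, adjusted p = 0.000673). Cald1 was at 223 CPM in both BV+ libraries and between 77.7 and 114 CPM in BV- cells (1.17 ± 0.14, SE, adjusted p = 0.000233), and its value with the offsets was 0.90, still called. These 3 genes and Tpm1 (0.76 ± 0.10, SE, adjusted p = 0.000527) were called whichever library was left out. Tpm2 (0.47) and Actn1 (0.36) were called as well. Myl9 was again lower in BV+ cells, at 69.6 and 64.9 CPM against 91.9 to 103 CPM (-0.53 ± 0.11, SE, adjusted p = 0.00767).

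Cnn1, Cnn2 and Flna overlapped between BV+ and BV- cells with NRF1 OE, with log2 differences of -0.18, 0.03 and 0.02, while 6 genes were higher without overlap (20.3% of all genes were) and Myl9 was lower (19.5% of all genes). With the offsets the median of all genes in this comparison moved by -0.13, and Flna was called lower at -0.29, or -0.15 relative to the median of all genes. Without BV+ NRF1 OE library 1 the calls of Tpm2 and Actn1 were lost, as they were without BV- NRF1 OE library 3, and when either BV+ Ctrl library was left out that of Actn1 was lost. The call of Myl9 was lost without BV+ NRF1 OE library 2 (adjusted p = 0.0599). These 5 fits called 786 to 1747 genes of the whole table, against 2325 with all libraries. By the study's threshold Acta2, Tagln, Tpm1 and Cald1 were called, against 14.7% of all genes.

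**Figure D3:**
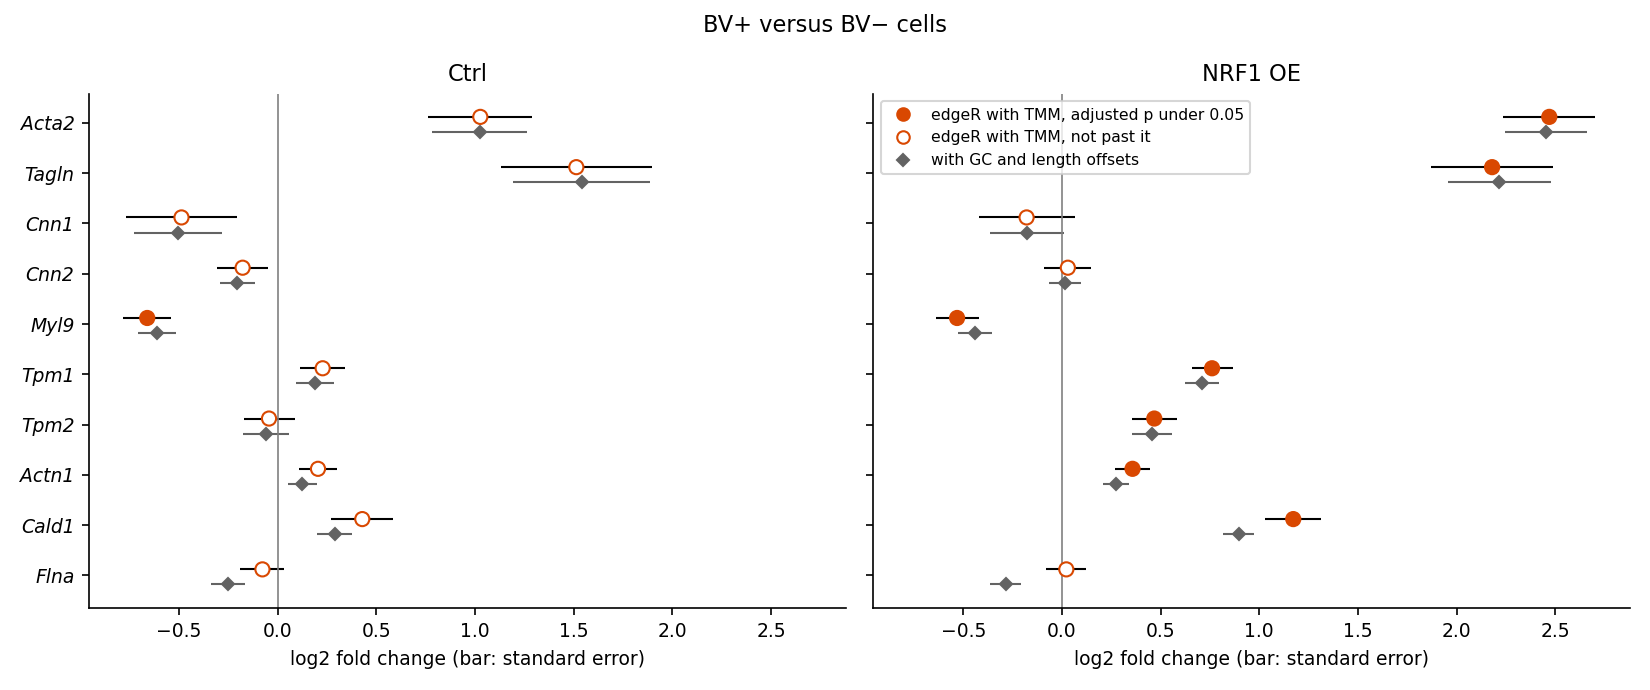
Log2 fold change (BV+ versus BV- cells) of the 10 genes with Ctrl (left) and with NRF1 OE (right), with standard errors. Symbols are as in the plot of NRF1 OE effects. Acta2 and Tagln lie at 1.03 and 1.51 with Ctrl and at 2.47 and 2.18 with NRF1 OE, and Myl9 is below 0 in both.

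The order of the 4 groups differed between genes. Acta2 and Tagln were highest in BV+ NRF1 OE cells and lowest in BV- Ctrl cells, both apart from their neighbours, while BV+ Ctrl and BV- NRF1 OE cells overlapped in between. Cnn2 and Flna were high in both NRF1 OE groups, which overlapped, and lower in BV- Ctrl and then BV+ Ctrl cells. Myl9 ran from BV- NRF1 OE through BV+ NRF1 OE and BV- Ctrl to BV+ Ctrl cells, with each neighbour apart. Cald1 followed the sort, with both BV+ groups above both BV- groups. The gene closest to the mean profile of the 10 was Tpm1, at a root mean square distance of 0.127 (log2 CPM, centred per gene, over 9 libraries), and the farthest were Tagln and Acta2, at 0.801 and 0.785. Among 10977 other genes with a mean of at least 5 CPM, the closest to that mean profile were Smpd1 (0.0818), Tspan9 (0.0864), Cand2 (0.0932), Endov (0.0935) and Slc39a1 (0.0941), where the median distance was 0.462.

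The neighbouring pathway was described with lists chosen for it. Of 13 genes of RhoA, MRTF and SRF signalling, 3 were called higher with NRF1 OE in BV+ cells and 0 lower, with a median log2 fold change of 0.28. These were Tgfb1i1 (Hic-5, a focal adhesion partner; 1.71), Lmod1 (leiomodin, an actin nucleator; 1.38) and the GTPase Rhob (1.09). In BV- cells 3 were higher and 2 lower. Tgfb1i1 was at 0.89, while the kinases that phosphorylate the myosin regulator downstream of RhoA, Rock2 and Rock1, were at -0.88 and -0.85. These values are without the offsets. Rock2 and Rock1 were lowest in BV- NRF1 OE library 2, at 30.1 and 22.5 CPM, the library with the strongest trend with GC content (0.635). The other BV- NRF1 OE libraries were also below both BV- Ctrl libraries. The part of the GC trend was not tested. Srf, named here after its values were seen, was called in BV- cells (0.49) and was at 130 and 118 CPM with NRF1 OE and 103 and 102 CPM with Ctrl in BV+ cells. Between BV+ and BV- cells 0 were called with Ctrl by edgeR or DESeq2 (2 at an unadjusted p under 0.05). Over all genes, 1.12% were called there by edgeR and 1.79% by DESeq2. At those shares 0 calls are likely in lists this short, here and below. With NRF1 OE 13.8% of all genes were called by edgeR. With NRF1 OE 5 were higher and 1 lower. Among the higher ones were Mylk (myosin light chain kinase, 1.49), Lmod1 (1.42) and Myocd. By DESeq2 the lower one was Srf, with NRF1 OE group means of 124 CPM in BV+ and 170 CPM in BV- cells. Myocd, the myocardin gene, was at 1.55 and 2.34 CPM in BV+ cells with NRF1 OE and between 0 and 0.118 CPM in BV- cells with NRF1 OE.

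Of 10 non-muscle actin and myosin II genes, 5 were higher in BV+ cells with NRF1 OE and 4 in BV- cells with NRF1 OE, with 0 lower in either and medians of 0.47 and 0.34. Of the genes called, Actg1, cytoplasmic γ-actin, had the largest value in BV+ cells (0.84), and Myl12a, a myosin light chain, in BV- cells (0.49). Actg1 differed by 0.61 in BV- cells, where it missed the threshold in edgeR (adjusted p = 0.0514) and was called by DESeq2. Between the populations 0 of the 10 were called with Ctrl by edgeR or DESeq2 (1 at an unadjusted p under 0.05). With NRF1 OE BV+ cells were higher for Myh10 (0.88), Actg1 (0.85) and Myh9 (0.62). Over all genes, edgeR called 1.12% with Ctrl and 13.8% with NRF1 OE. Of 11 paralogs of the contractile and actin-binding genes, 10 were tested and 5 were called higher with NRF1 OE in each population. The skeletal muscle actin gene Acta1 rose by 2.02 in BV+ and 1.47 in BV- cells, the filamin gene Flnc by 1.26 and 0.79, and the cardiac actin gene Actc1 by 0.85 and 1.07. Acta1 was also higher in BV+ than in BV- cells with Ctrl (2.14), the only 1 of the 10 called there, and with NRF1 OE (2.70), as were Flnc (1.52) and Cnn3 (0.41). Actg2, the other smooth muscle actin gene, was at most at 0.272 CPM in every library and was not tested. Acta2, Acta1, Actc1, Actg1 and Actb encode near-identical proteins. Reads shared between these genes were not measured, and their counts are uncertain to that extent.

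Of 12 focal adhesion genes, 4 were called higher in BV+ cells (Parva 1.01, Zyx 0.73 and Pdlim7 0.65 were the largest) and 5 in BV- cells (Ilk 0.83, Zyx 0.72 and Pdlim7 0.50). Between BV+ and BV- cells 0 of these were called with Ctrl by edgeR or DESeq2 (1 at an unadjusted p under 0.05) and 3 were with NRF1 OE (Lpp 1.38, Parva 1.25 and Itgb1 0.52). Of 8 SRF and YAP target genes outside the cytoskeleton, 3 were higher in BV+ cells, namely Ccn1 (1.14), Csrp1 (1.07) and Ccn2 (0.54), and 1 in BV- cells, Csrp1 (0.95). Between the populations 0 were called with Ctrl by edgeR or DESeq2 (2 at an unadjusted p under 0.05) and 3 with NRF1 OE (Fos 2.18, Fhl2 1.71 and Egr1 0.78). For both the focal adhesion genes and these targets, the shares over all genes by edgeR were 1.12% with Ctrl and 13.8% with NRF1 OE. In the direct test of the difference between the NRF1 OE effects, 0 genes of these 5 lists were called by edgeR or DESeq2, and between 0 and 3 of a list had an unadjusted p under 0.05.

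Markers of other cell types moved with some of these genes, and their part in the results was not tested. The summed level of 7 mesenchyme markers was 458 to 715 CPM in BV+ cells with NRF1 OE and 136 to 141 CPM in BV+ cells with Ctrl. It was 25.2 to 31.7 CPM with NRF1 OE and 25.0 to 31.0 CPM with Ctrl in BV- cells. Most of this sum in BV+ cells was 1 gene, the collagen gene Col1a2, at 602 and 368 CPM with NRF1 OE and at 99.8 and 102 CPM with Ctrl. Acta2 and Tagln were highest in the group where Col1a2, and with it the sum, was highest. In BV- cells the sum overlapped between NRF1 OE and Ctrl, while DESeq2 called Col1a2 higher with NRF1 OE (group means of 14.3 and 9.10 CPM). The log2 fold changes of Acta2 and Tagln there were 0.87 and 1.26. In BV+ cells 4 of the 7 were called higher with NRF1 OE, led by the collagen genes Col1a2 (2.26), Col1a1 (1.96) and Col3a1 (1.94). Pdgfra was lower (-1.17), while Twist1 and Thy1 were between 1.54 and 5.09 CPM in all 9 libraries. In BV- cells Col3a1 (2.08, at most 0.663 CPM) was called higher and Pdgfra (-1.29) lower. The same collagen genes were the 3 called higher in BV+ than in BV- cells with Ctrl (2.80 to 3.92), and 4 were with NRF1 OE.

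The sum of 7 cardiac muscle markers was 108 to 172 CPM in BV+ cells with NRF1 OE, 43.8 to 45.2 CPM in BV+ cells with Ctrl and 15.7 to 19.6 CPM in BV- cells. Myh7, a myosin heavy chain gene, made up most of it in BV+ cells, at 140 and 86.2 CPM with NRF1 OE and at 26.5 and 27.3 CPM with Ctrl. With NRF1 OE, 3 were called higher in BV+ cells (Myh7 2.07, Tnni1 2.02 and Nkx2-5 1.50). In BV- cells 0 were, by edgeR, by DESeq2 or at an unadjusted p under 0.05. Tnnt2 and Myl7, defining genes of heart muscle, stayed at or under 2.47 CPM in all libraries. Between BV+ and BV- cells, 2 were higher with Ctrl, and 5 were higher and 1 lower with NRF1 OE, led by Myh7 (3.03 and 4.92). Tnnt2 was called higher in BV+ cells under both vectors. Its group means were 1.43 against 0.165 CPM with Ctrl and 2.16 against 0.351 CPM with NRF1 OE. Of 6 markers of differentiated smooth muscle, 2 were called higher with NRF1 OE in BV+ cells, the intermediate filament gene Des (1.46) and Lmod1 (1.38). In BV- cells 0 were called by edgeR, where 1 was higher and 1 lower at an unadjusted p under 0.05, and DESeq2 called 1 lower. Their sum was 152 to 188 CPM in BV+ cells with NRF1 OE, 103 to 109 CPM in BV+ Ctrl cells and 91.8 to 121 CPM in BV- cells. Myh11, the smooth muscle myosin heavy chain, was between 0.884 and 1.66 CPM in all 9 libraries. Of the markers, only Myocd was at 0 in any library among these 3 lists, in 2 BV- NRF1 OE libraries.

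The sum of 7 germ cell markers was 354 to 365 CPM in BV+ cells with NRF1 OE, 347 to 350 CPM in BV+ Ctrl cells, 436 to 525 CPM in BV- cells with NRF1 OE and 373 to 379 CPM in BV- Ctrl cells. With NRF1 OE, Dppa3 was called higher in BV+ cells (0.65) and 4 of the 7 in BV- cells, led by Nanos3 (1.02), Dppa3 (0.84) and Dnd1 (0.82). Of 5 endothelium markers, Cdh5 (1.59) and Kdr (1.49) were called higher with NRF1 OE in BV+ cells. In BV- cells 0 were, by edgeR, by DESeq2 or at an unadjusted p under 0.05. The summed level was between 152 and 189 CPM over all 9 libraries, and most of it was Pecam1 (group means of 122 to 163 CPM). Cdh5 and Kdr were also higher in BV+ than in BV- cells with Ctrl (2.09 and 1.75), and 3 were with NRF1 OE. Visceral endoderm markers summed to 5.50 to 6.70 CPM in BV+ cells with NRF1 OE, 11.3 to 13 CPM in BV+ Ctrl cells and 18.1 to 47.6 CPM in BV- cells, with all 5 called lower in BV+ than in BV- cells with NRF1 OE. Of 5 pluripotency markers, Zfp42 was called lower with NRF1 OE in both populations (-0.67 and -0.53) and Esrrb higher in BV- cells (0.39).

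**Figure D4:**
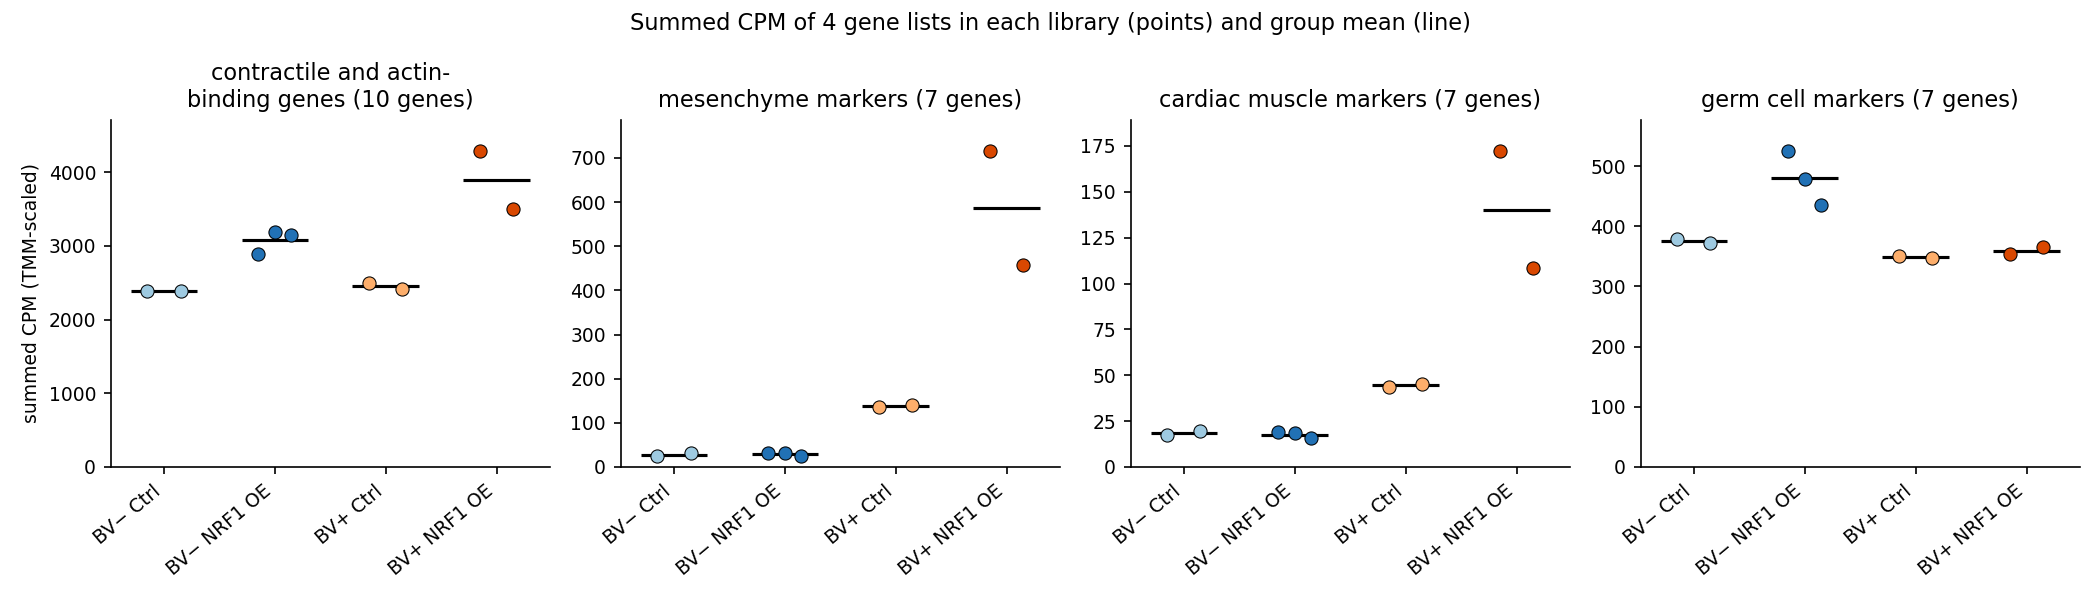
Summed CPM (TMM-scaled, linear axes from 0) of the 10 contractile and actin-binding genes and of 7 mesenchyme, 7 cardiac muscle and 7 germ cell markers. Points are libraries and lines are group means. The 10 genes sum to 3505 and 4284 CPM in BV+ cells with NRF1 OE against 2416 to 2490 CPM in BV+ Ctrl cells, and to 2885 to 3193 CPM in BV- cells with NRF1 OE against 2388 to 2390 CPM in BV- Ctrl cells, while the mesenchyme sum, mostly Col1a2 in BV+ cells, separates BV+ from BV- cells.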

How the data were processed

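RNA-seq of 9 libraries in 4 groups was used. The authors trimmed the reads, mapped them with HISAT2 2.0.1 to GRCm39 and counted them with HTSeq 0.6.1, and deposited raw counts per gene together with FPKM from the same reads. Whether counting used strand is not given in the sources used here. Groups and replicate numbers were taken from the sample titles.

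Counts were fitted in R 4.3.3 with edgeR 4.0.16 (TMM, filterByExpr, quasi-likelihood F test, 1 mean per group, all 9 libraries, 2-sided, Benjamini-Hochberg over 16903 genes). Fold changes are edgeR's, and SE is the size of the log2 fold change over the square root of F. CPM were scaled by TMM, log2 CPM used a prior count of 2, and FPKM were used only as levels. Alternatives were DESeq2 1.42.0, other scalings and filters, the groups compared alone, the replicate number as a block, GC and length offsets (mgcv 1.9.3, GENCODE transcripts on GRCm38, 98.6% of genes) and each library left out.

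All 10 genes are named, with at most 3 called genes per list and comparison and the 5 genes of most similar profile. The genes and lists were chosen with earlier results of these data known. Promoter sequences are from RefSeq (GRCm38.p6). Tagln had no window and is named only. Figures were drawn with matplotlib 3.10.9. ChIP-seq was not analysed here.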

Additional observations from a re-analysis of the deposited data

Results flagged for a closer look

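Cald1, the caldesmon gene, was flagged because its NRF1 OE effect had opposite signs in the 2 sorted populations. The log2 fold change was 0.31 in BV+ cells, where both NRF1 OE libraries were above both Ctrl libraries, and -0.43 in BV- cells, where all 3 NRF1 OE libraries were below both Ctrl libraries. The direct test of the difference gave 0.74 ± 0.21 (SE), with an unadjusted p of 0.00481 and an adjusted p of 0.584 in edgeR, which does not pass. With GC and length offsets the effects were 0.51 and -0.10 and the difference was 0.61 (adjusted p = 0.124).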

How the results depend on the processing

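Over the settings that left out 1 library, 361 of 450 single-gene values kept their direction and their side of the threshold, 66 lost the call, 15 gained it and 8 changed sign. Over the other settings the numbers were 426, 38, 36 and 10 of 510. The 450 values include fits whose left-out library was not in the comparison. Such fits can hardly move its fold change, so the share that stayed the same overstates stability. When libraries were left out 1 at a time, the number of the 10 genes called ranged from 0 to 10 for NRF1 OE in BV+ cells, 0 to 8 in BV- cells, 0 to 4 between BV+ and BV- cells with Ctrl, 5 to 7 with NRF1 OE and 0 to 1 for the difference of effects. The whole table moved with them, with 0 to 4957, 0 to 5847, 31 to 484, 786 to 3182 and 0 to 33 genes called. A lone remaining library was assumed to vary like the other groups.

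For NRF1 OE in BV- cells, 0 were called when only the groups compared were fitted, as were 0 of all 15840 genes. Between BV+ and BV- cells with Ctrl, 3 were called by DESeq2 (303 of 16903 genes) and without a filter (529 of 33142). As many were called with GC and length offsets (341 of 16662) and at the study's threshold (971 of 16903). With only the groups compared, 5 were called (890 of 16118 genes). With NRF1 OE, 4 were called with only the groups compared (1260 of 16148 genes) or at the study's threshold (2486 of 16903). For the difference of effects, 1 was called by DESeq2 (23 of 16903 genes). There 2 were called without a filter (108 of 33142) or at the study's threshold (757 of 16903). The cause was not tested. The offsets moved the share of called genes in the whole table that were higher from 77.8% to 57.6% (NRF1 OE, BV+), from 59.5% to 76.9% (NRF1 OE, BV-), from 97.9% to 86.2% (populations, Ctrl) and from 72.0% to 32.9% (populations, NRF1 OE).

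Same-numbered libraries were not shown to be pairs. The correlation of their deviations was -0.03 for BV+ NRF1 OE and Ctrl, 0.31 and 0.35 for BV-, -0.15 for the Ctrl populations and -0.26 and -0.43 for the NRF1 OE populations. With the replicate number as a block, 0 were called for NRF1 OE in BV+ and in BV- cells, 0 between the populations with Ctrl and 4 with NRF1 OE. Over all 16903 genes this block called 3, 0, 121 and 1064, so the counts say little about the 10 genes. With block and offsets together, 6, 1, 1 and 7 were called, against 1332, 239, 216 and 3528 of 16662 genes. For the Ctrl populations, a crossed pairing and a same-number block of these libraries alone, both chosen after seeing the data, gave 8 and 4 calls, against 2079 and 823 of 16118 genes.

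Signs changed for small values. Tpm2 in BV- cells was -0.11 with offsets and -0.10 with offsets and block. Between the populations with NRF1 OE, Cnn2 was -0.00985 with upper-quartile factors, -0.00482 with the block and -0.0106 with both corrections (-0.16 to 0.20 with libraries left out). Flna there was -0.0165 with upper-quartile factors and -0.29 with offsets, alone or with the block (-0.0952 to 0.13). The difference of effects for Flna was -0.0333 and -0.0392 with offsets, alone and with the block (-0.0178 to 0.21). With libraries left out, Tpm2 ranged from -0.14 to 0.0290 between the Ctrl populations, and Cnn1 from -0.43 to 0.0885 between the NRF1 OE populations. Depth limits Tagln and Cnn1 most, whose lowest counts in a library were 78 and 121.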
